A study of Mus musculus with 56 samples.

Results

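The 40 genes described here drive or restrain the cell cycle, and they were taken as a named list from the 47069 gene identifiers of the table. They comprised 13 S phase members, which act in DNA replication, 20 mitotic members, 5 G1 cyclins and kinases and 2 inhibitors of cyclin-dependent kinases (CDKs). All 40 had a row. Levels are CPM, that is, a gene's estimated read count scaled to a sum of 1000000 over genes without spike-ins, and the wells described are the 46 of 56 with at least 100000 gene counts.

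The data came from primary pituitary cultures of untreated female C57BL/6 mice aged 10 to 12 weeks, with 5 pituitaries pooled per sample. The labels gave 4 days of culture, while the protocol text also described acute dissociation, and the cells had been stabilized in RNA-Best, a reagent that keeps whole cells and their RNA intact before an assay. Single cells (SCs) were captured on a Fluidigm C1 circuit, cDNA was made with SMART-Seq v4, and each library is named here by its well. No separate animals, cultures or treatments were named, so the wells form 1 sample with no comparison between groups, no replicate and no test. The hormones of the pituitary marked the tissue in every well, with *Prl*, *Gh* and *Pomc* each at 10 CPM or more in 46 of 46 wells, whichever of them led.

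A cell that divides passes from G1 through DNA synthesis to mitosis. In G1, D-type cyclins (*Ccnd1*, *Ccnd2*, *Ccnd3*) bind *Cdk4* and relieve the block that the retinoblastoma protein places on E2F factors; cyclin E with *Cdk2* then starts replication, for which the Mcm genes supply the helicase, *Pcna* the sliding clamp, and *Rrm1*, *Rrm2* and *Tyms* the nucleotides. Cyclins A and B with *Cdk1* drive mitosis, and *Mki67*, *Top2a*, *Aurkb* and the kinetochore genes are transcribed late in the cycle. *Cdkn1a* and *Cdkn1b* encode inhibitors of these kinases, and loss of *Cdkn1b* gives rise to pituitary tumours in mice. Hormone cells of the adult gland divide seldom.

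Gene counts in the 46 wells ranged from 111195 to 12563266 with a median of 1192620, and 25 wells had 1000000 or more. The limit of 10 CPM therefore stood for 1.11 counts in the shallowest well and 126 in the deepest, and for fewer than 10 counts in 21 wells. Spike-ins took 0.144% to 66.1% of all counts. Wells C10 and C11 were unusually alike (Pearson r of log2(CPM + 1) across genes = 0.966, against 0.898 for the next pair and a median of 0.626 over 1035 pairs), and the main counts were repeated without C11. It held 5 members at 10 CPM and no mitotic one, so a count of wells changes by at most 1 without it, and the numbers of members found in any well (27), in no well (13) and in 50% of the wells or more (4) were the same. Since the reads carried no molecular identifiers, intervals below are exact Clopper-Pearson 95% intervals, and these and the limits for a count of 0 cover counting error only. How strand was treated in counting was not stated, so reads of a member and of a gene that overlaps it cannot be told apart; this touches *Cdk4* (*Tspan31*), *Ccnd2* (9330179D12Rik and Gm43126), *Ccnd3* (*Bysl*), *Cdc20* (*Elovl1*), *Ube2c* (*Tnnc2*), *Cdk2* (*Pmel*) and *Mcm7* (*Ap4m1*, *Cops6* and 3 microRNA genes), among others.

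Late cell cycle genes share short promoter elements, which gives a view of what sets the mitotic members apart in sequence. The sequences below are the 250 bases upstream of the annotated start, from RefSeq on GRCm38.p6, written 5′ to 3′ on the strand of the gene, for a pair of mitotic genes that were all but absent from these cells and for a G1 kinase and a CDK inhibitor that were found in most of them. Capitals mark CCAAT on either strand (written ATTGG on the other strand) and the cell cycle homology element TTTGAA or TTCGAA on either strand. The windows are chr7:135716380-135716629 (minus strand) for *Mki67*, chr10:69352913-69353162 (minus) for *Cdk1*, chr10:127063285-127063534 (plus) for *Cdk4* and chr17:29093519-29093768 (plus) for *Cdkn1a*, which has a second start.
Mki67: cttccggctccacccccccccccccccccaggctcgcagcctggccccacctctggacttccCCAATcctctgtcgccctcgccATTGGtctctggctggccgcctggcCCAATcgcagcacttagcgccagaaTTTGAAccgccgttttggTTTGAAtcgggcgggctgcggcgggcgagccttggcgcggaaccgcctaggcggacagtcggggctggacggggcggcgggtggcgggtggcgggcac
Cdk1: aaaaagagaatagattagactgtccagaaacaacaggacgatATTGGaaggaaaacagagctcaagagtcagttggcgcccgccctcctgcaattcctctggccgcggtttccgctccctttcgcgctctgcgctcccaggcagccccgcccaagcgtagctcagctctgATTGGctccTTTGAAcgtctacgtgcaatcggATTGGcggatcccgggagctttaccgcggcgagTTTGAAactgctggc
Cdk4: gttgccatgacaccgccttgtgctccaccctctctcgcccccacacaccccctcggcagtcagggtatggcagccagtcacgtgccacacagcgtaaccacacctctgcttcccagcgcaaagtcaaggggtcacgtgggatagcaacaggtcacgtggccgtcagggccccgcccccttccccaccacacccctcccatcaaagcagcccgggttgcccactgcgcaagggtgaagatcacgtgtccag
Cdkn1a: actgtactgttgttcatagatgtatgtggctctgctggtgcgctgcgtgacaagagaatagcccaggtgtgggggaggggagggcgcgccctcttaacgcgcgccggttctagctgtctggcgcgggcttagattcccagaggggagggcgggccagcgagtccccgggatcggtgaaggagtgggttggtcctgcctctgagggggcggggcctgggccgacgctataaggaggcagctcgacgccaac

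CCAAT occurred in the windows of 16 of the 17 mitotic members that had one, of 8 of 11 S phase members, 2 of 3 G1 members and 1 of 2 inhibitors, and in 33.8% of all 32851 windows. TTTGAA or TTCGAA occurred in 8 of 17 mitotic members, 2 of 11 S phase members, no G1 member of 3 and no inhibitor of 2, and in 17.1% of all windows. The *Mki67* window held CCAAT at 3 places and the homology element at 2, and so did that of *Cdk1*, in which the element began 71 and 15 bases before the start. Neither window of *Cdkn1a* and not that of *Cdk4* held either motif. The genes shown are examples, and the homology element did not follow absence over the mitotic list. It was in the windows of *Top2a*, *Ccnb2*, *Cdc20*, *Bub1b*, *Kif11* and *Ube2c*, each at 10 CPM in some well, but not of *Ccnb1*, *Cenpa* and *Cenpf*, also found. *Plk1*, *Aurka*, *Bub1*, *Birc5*, *Cenpe* and *Kif23*, at 10 CPM in no well, lacked it. Among the mitotic members found in no well, only the examples shown, *Mki67* and *Cdk1*, held it. The motifs are matches of letters and not sites shown to be bound. Of the 40 members, 33 had a window.

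The 4 classes differed widely in how often their members were found. At 10 CPM or more were 108 of 230 G1 values (47.0%; a value is 1 gene in 1 well) and 38 of 92 inhibitor values (41.3%), against 83 of 598 S phase values (13.9%) and 30 of 920 mitotic values (3.26%). Over all identifiers 8.4% of values reached this limit, and over protein coding genes 15.5%. As classes, the mitotic members thus lay below the coding background, the S phase members near it, and the G1 and inhibitor members above it. Single genes carried much of these shares. All 38 inhibitor values were of *Cdkn1a*, and *Pcna* alone gave 36 of the 83 S phase values. Of the 108 G1 values *Ccnd2* gave 43 and *Cdk4* 39, while *Ccnd1* gave 6 and *Cdk2* 0. On a scale that also divides by exon length, TPM (the length-scaled values of a well sum to 1000000), the order of the classes was the same. Of G1, inhibitor, S phase and mitotic values 40.4%, 34.8%, 9.20% and 2.07% reached 10 TPM, against 11.0% for coding genes.

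**Figure D1:**
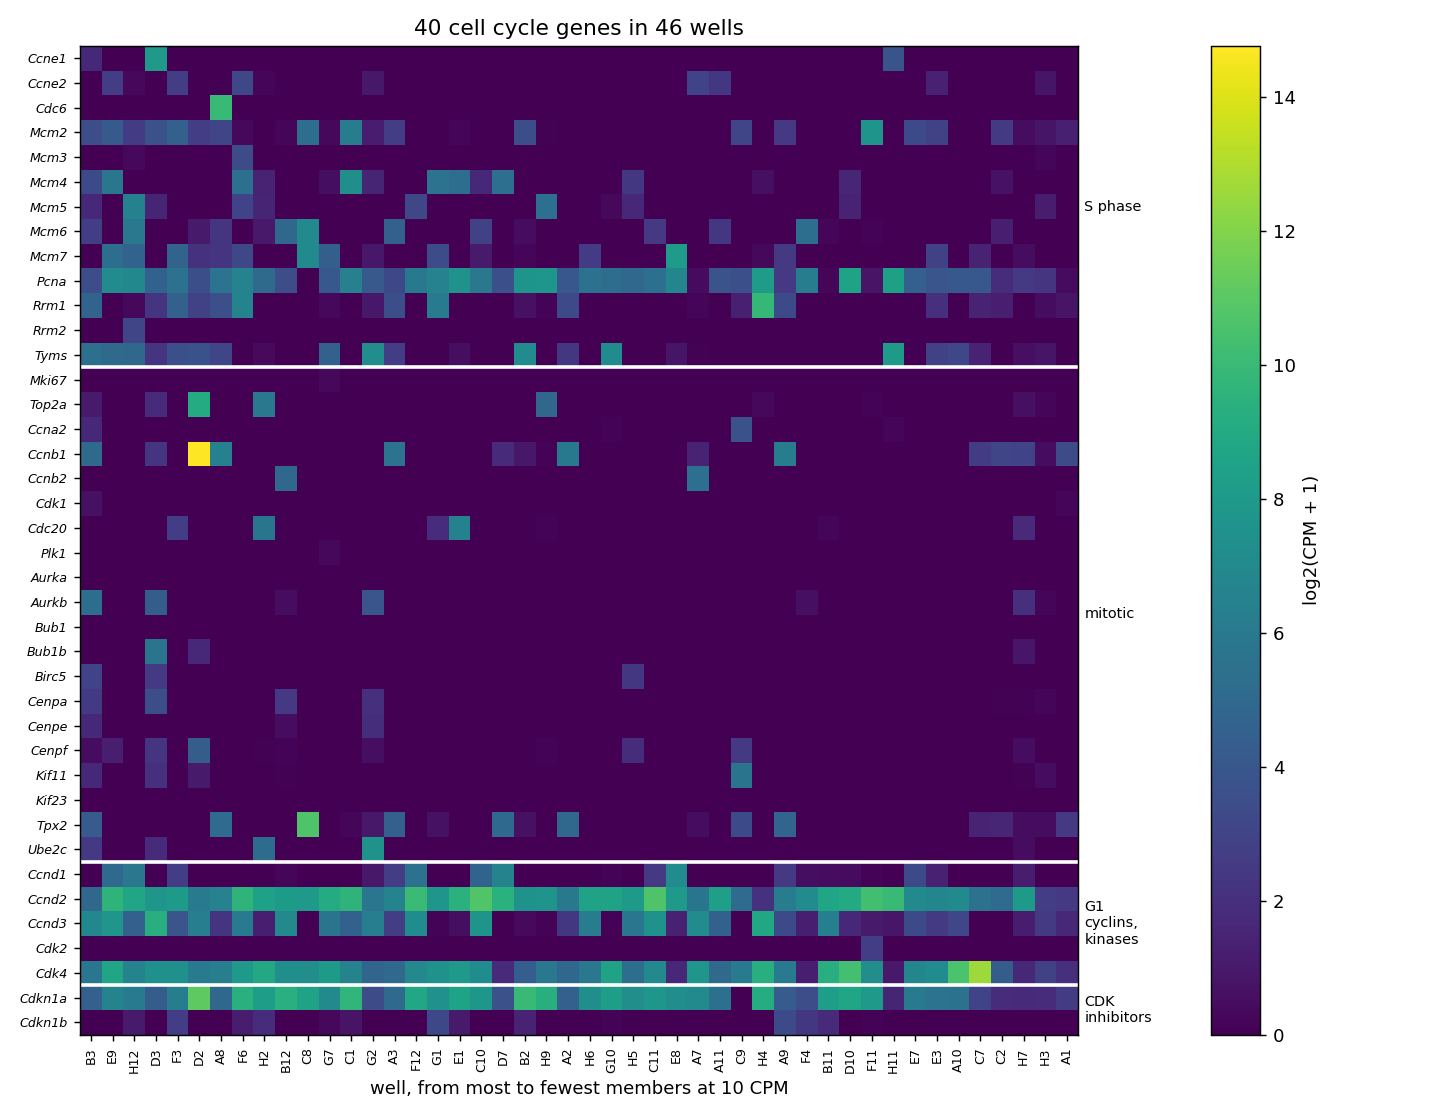
Level of each of the 40 members (rows, by class) in each of the 46 wells (columns, from most to fewest members at 10 CPM), as log2(CPM + 1) in colour. The rows of Ccnd2, Cdk4, Cdkn1a and Pcna run across nearly the whole plate, while the mitotic block is dark apart from single cells of the map such as Ccnb1 in D2 and Tpx2 in C8.

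Of the 40 members, 27 reached 10 CPM in at least 1 well, and 13 in none. Only 4 members did so in 50% of the wells or more: *Ccnd2* in 43 wells, *Cdk4* in 39, *Cdkn1a* in 38 and *Pcna* in 36. Among protein coding genes 10.7% reached 10 CPM in 50% of the wells or more and 37.5% in no well. The 13 members found in no well were *Ccne2*, *Mcm3*, *Rrm2*, *Mki67*, *Cdk1*, *Plk1*, *Aurka*, *Bub1*, *Birc5*, *Cenpe*, *Kif23*, *Cdk2* and *Cdkn1b*. A count of 0 of 46 wells allows a share of up to 6.52% when read as 3 of 46, and the exact interval reaches 7.71%.

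*Ccnd2* (ENSMUSG00000000184.12, chr6:127125162-127152193, minus strand, GRCm38) was the most widely found member. It had counts in 46 of 46 wells and reached 10 CPM in 93.5% of them (95% interval 82.1% to 98.6%). Its level ran from 3.22 CPM in H4 through a median of 243 CPM to 1756 CPM in C10, and C11, the near copy of C10, was next with 1649 CPM. Levels were thus spread widely, and 19 wells lay within 2-fold of the median. Per length it was the highest of the D-type cyclins in 39 wells, and *Ccnd3* was the highest in 6.

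*Ccnd3* (chr17:47505051-47599691, plus strand) reached 10 CPM in 20 wells (43.5%, 28.9% to 58.9%). Its median was 6.64 CPM, with the highest values of 643 CPM in D3 and 463 CPM in H4. Its counts were not whole numbers in 20 wells, which means that reads were divided with other features. *Ccnd1* was found in 6 wells, at most at 138 CPM in E8, and its median was 0. All 3 D-type cyclins were at 10 CPM in 4 wells, 2 of them in 17, 1 in 23 and none in 2.

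*Cdk4* (ENSMUSG00000006728.12, chr10:127063534-127067920, plus strand), the kinase partner of the D-type cyclins, had counts in every well and reached 10 CPM in 39 (84.8%, 71.1% to 93.7%). Its median was 102 CPM, or 49.9 TPM, and it ranged from 1.04 CPM in H11 to 6132 CPM in C7. The C7 value rested on 3513 counts and stood apart from the next, 1506 CPM in A10. *Ccnd2* and *Cdk4* were found together in 38 wells. *Cdk2*, which pairs with cyclin E, had counts in F11 alone, 52 of them (5.49 CPM).

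*Cdkn1a* (ENSMUSG00000023067.13, chr17:29090976-29100727, plus strand), the inhibitor induced by p53, was found almost as widely as *Cdk4*, in 38 wells (82.6%, 68.6% to 92.2%). Its median was 113 CPM, or 52.3 TPM, its lowest value was 0 in C9, and its highest was 2201 CPM in D2, followed by 985 CPM in B2. It varied more between wells than *Ccnd2* did, with 12 wells within 2-fold of its median and an SD of log2(CPM + 1) of 2.66 against 2.05. Per length *Cdkn1a* was above *Ccnd2* in 24 of 46 wells. *Cdkn1b*, the other inhibitor, had counts in 14 wells and stayed below the limit in all 46, at most at 9.15 CPM in A9, where it rested on 2 counts, and at 8.28 CPM in well G1, where it rested on 71.

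In TPM the medians of *Cdkn1a* (52.3), *Cdk4* (49.9) and *Ccnd2* (38.7) were close beside their spread over wells, and that of *Pcna* was 14.1. The 4 genes were at 10 CPM together in 28 wells. Across the 46 wells the levels of *Cdk4* and *Cdkn1a* went together to some extent (Pearson r of log2(CPM + 1) = 0.461, Spearman rho = 0.475), as did those of *Ccnd2* and *Cdkn1a* (r = 0.416, rho = 0.422), while *Ccnd2* and *Cdk4* did so less (r = 0.132, rho = 0.216). These points share the depth and spike-in share of their wells, and *Cdkn1a* itself was lower where spike-ins took more (rho = -0.367).

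**Figure D2:**
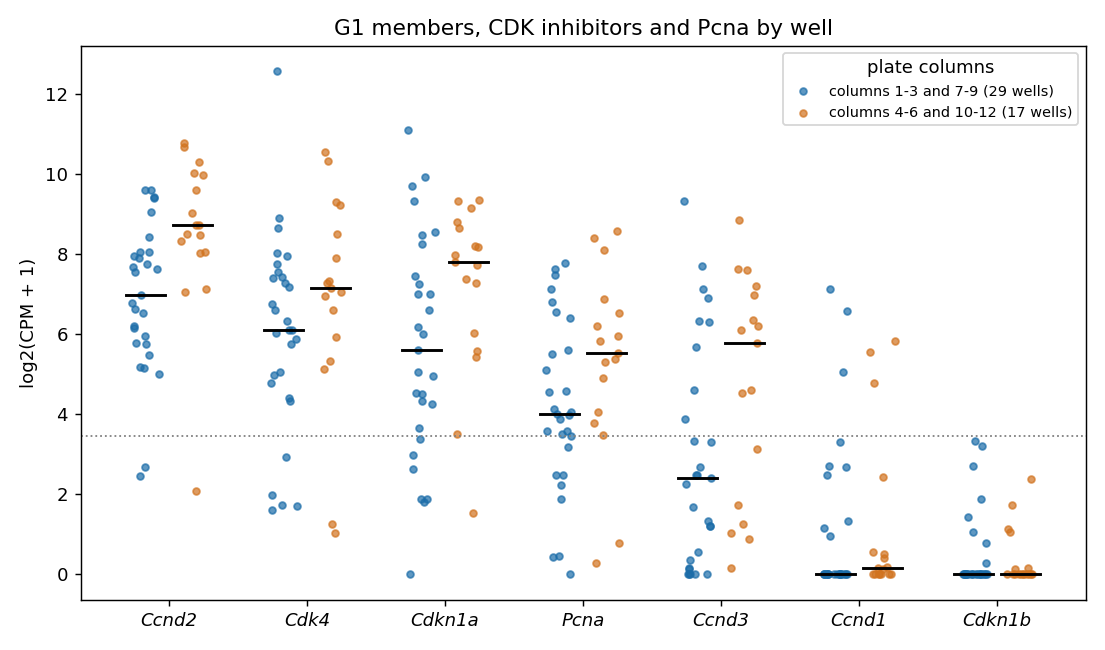
Level of the D-type cyclins, Cdk4, the 2 inhibitors and Pcna in each well, as log2(CPM + 1), for the 29 wells of plate columns 1 to 3 and 7 to 9 and the 17 of columns 4 to 6 and 10 to 12; black bars are medians and the dotted line is 10 CPM. Ccnd2, Cdk4, Cdkn1a and Pcna lie mostly above the line in both sets, and the medians of the 17 wells are the higher ones for these 4 and for Ccnd3.

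The position on the plate moved with these levels. In the 29 wells of columns 1 to 3 and 7 to 9 the median of *Ccnd2* was 126 CPM, that of *Cdk4* 68.6, of *Cdkn1a* 47.9, of *Pcna* 15.2 and of *Ccnd3* 4.35. In the 17 wells of columns 4 to 6 and 10 to 12 the same medians were 423, 142, 224, 45.0 and 54.3 CPM. The ranges of both sets overlapped for each gene. The median depth was 1050009 gene counts in the first set and 3030870 in the second, and the median spike-in share 7.41% and 2.06%; their part in the difference was not tested.

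Among the S phase members *Pcna* (ENSMUSG00000027342.14, chr2:132249162-132253314, minus strand) stood alone in its reach. It was found in 36 wells (78.3%, 63.6% to 89.1%), with a median of 22.7 CPM, 0 in C8 and a highest value of 381 CPM in D10. Its counts were fractional in 23 wells, so part of its reads was shared with other features. Next came *Tyms*, thymidylate synthase, in 10 wells and the helicase gene *Mcm2* in 8, and 25 wells held an S phase member other than *Pcna*. *Tyms* was highest in H11 (266 CPM) and *Mcm2* in F11 (203 CPM, 1920 counts).

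The 6 helicase genes act as a single ring, but no well held all 6 at 10 CPM. At most 3 of the 6 were at 10 CPM in a well, 27 wells had none, 14 had 1 and 5 had 2 or more. Each gene alone was found in few wells, from 0 for *Mcm3* to 8 for *Mcm2*. Over all protein coding genes 15.5% of values reached this limit. The overlap that such sparse genes would show by themselves was not computed, so these counts are not read as particular to the ring. *Mcm7* peaked in E8 (282 CPM), *Mcm4* in C1 (162 CPM), *Mcm6* in C8 (128 CPM) and *Mcm5* in H12 (89.5 CPM). *Mcm3* reached 9.60 CPM in F6, with 40 counts, and was all but absent elsewhere. *Cdc6*, which loads the ring, was seen in A8 alone, at 984 CPM with 259 counts. *Rrm2*, a subunit of ribonucleotide reductase, was seen in H12 alone, at 7.50 CPM. *Rrm1*, the partner of *Rrm2*, was found in 7 wells and led by H4 with 896 CPM, in which 77.7% of all its counts lay.

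Well H4 also had the second highest *Ccnd3* (463 CPM), the third highest *Pcna* (273 CPM) and the lowest *Ccnd2* (3.22 CPM). It held 6 of 7 endothelial markers at 10 CPM, with the highest *Plvap* (4885 CPM), *Kdr* (1681 CPM) and *Cdh5* (1267 CPM) of any well, and 14379 CPM of *Prl*. The most endothelial markers in any well were 7 of 7, so H4 was not the only well with most of that list. No mitotic member reached 10 CPM there. The part of the cell type in these member levels was not tested.

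Mitotic members were rare and scattered. They were absent at 10 CPM in 30 wells, and of the other 16 (34.8%, 21.4% to 50.2%) 6 held 1, 6 held 2 and 4 held 3 of the 20, which was the most in any well. No count at all fell on *Aurka*, *Bub1* or *Kif23*, and 3 counts of the 132319429 in these wells would have been 0.0227 CPM. *Mki67* (ENSMUSG00000031004.7, chr7:135689784-135716361, minus strand), the usual marker of dividing cells, and *Plk1* had 1 count each, both in G7, and *Cdk1* (ENSMUSG00000019942.12, chr10:69335146-69352938, minus strand) had an estimated count of 0.25 in each of 2 wells. Of the 30 mitotic values at the limit, 9 rested on fewer than 10 counts, and 4 were at 100 CPM or more.

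Those 4 lay in 3 wells. *Ccnb1*, cyclin B1 (ENSMUSG00000041431.16, chr13:100778650-100786570, minus strand), reached 27794 CPM in D2, where 25227 counts made up 99.4% of all its counts. *Top2a*, the topoisomerase that untangles sister chromosomes, was highest in the same well (544 CPM), and *Cenpf* there was 19.3 CPM, while *Mki67*, *Cdk1*, *Ccnb2*, *Plk1* and *Tpx2* had 0 counts in D2. The spindle factor *Tpx2* reached 1682 CPM in C8, with 95.1% of all its counts, and *Ube2c*, which marks cyclins for destruction, 191 CPM in G2. Outside these wells *Top2a* was found in H2 (59.0 CPM) and H9 (28.0 CPM), *Ube2c* in H2 (36.9 CPM), *Cdc20* in E1 (88.7 CPM) and H2 (52.8 CPM), and *Ccnb2* in A7 (40.7 CPM) and B12 (29.7 CPM). H2, with *Top2a*, *Cdc20* and *Ube2c*, was led by *Pomc* and was the deepest well.

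Most replication and mitotic members were concentrated in this way, and so were many other genes. Of the 30 S phase and mitotic members with any count, 21 (70.0%) had more than 50% of their summed counts in 1 well, as a gene with a single count must, against 52.7% of protein coding genes with any count. With at least 100 summed counts asked these were 11 of 16 members (68.8%) and 40.8% of coding genes. Of the G1 and inhibitor members the same held for *Cdk2* only.

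Low counts of *Ccnb1* and *Tpx2* recurred on part of the plate. *Ccnb1* had counts in 16 wells and *Tpx2* in 18, and all of these lay among the 29 wells of columns 1 to 3 and 7 to 9, with 0 counts of either gene in the other 17. Apart from D2 and C8, the highest count of *Ccnb1* was 22.5 and that of *Tpx2* was 28. Both were at 10 CPM in A2, A3, A8, A9 and B3, with 9 to 22.5 counts of *Ccnb1* and 4 to 9 of *Tpx2*, and in these wells the ratio of *Ccnb1* to *Tpx2* counts was 1.88 to 2.67. Over the 13 wells with counts of both genes it ranged from 0.0714 in D7 to 16.5 in H7. Spike-ins took 64.0%, 63.0%, 42.0%, 49.1% and 8.18% of the counts in A2, A3, A8, A9 and B3. A10 and A11, with 58.0% and 66.1%, had no count of either gene, but both lie among the 17 wells without any. Spike-in share and plate columns cannot be told apart in this comparison. The source of these low counts was not tested.

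**Figure D3:**
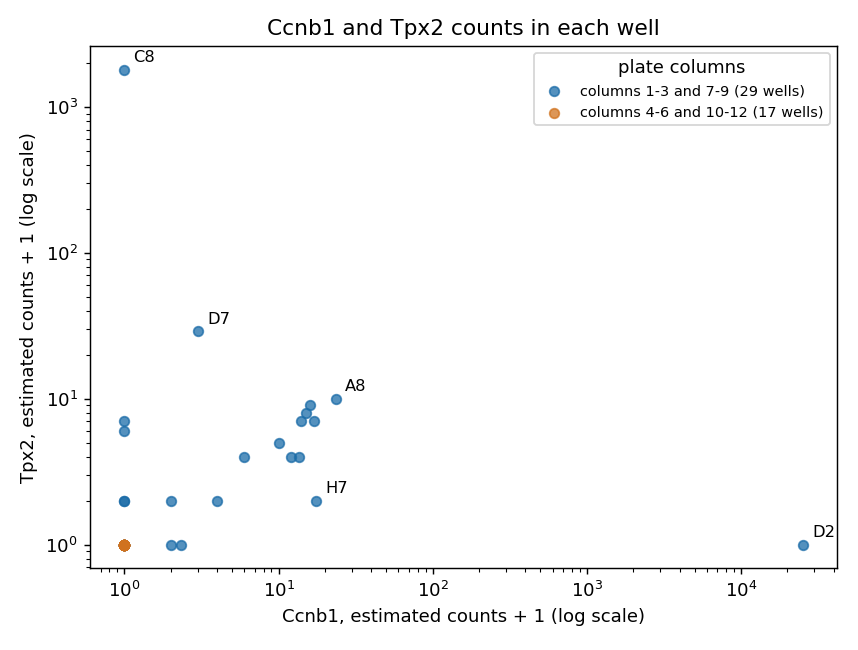
Estimated counts of Ccnb1 (x axis) and Tpx2 (y axis) in each of the 46 wells, with 1 added, both on a log scale, coloured by plate columns. Wells of columns 4 to 6 and 10 to 12 all lie at 0 counts of both, D2 and C8 stand apart, and a string of wells around A8 holds both genes at low counts.

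The number of wells with a mitotic member also differed between the plate columns. In columns 1 to 3 and 7 to 9, 15 of 29 wells held at least 1 mitotic member at 10 CPM (51.7%, 32.5% to 70.6%), and in columns 4 to 6 and 10 to 12, 1 of 17 (5.88%, 0.149% to 28.7%). Without *Ccnb1* and *Tpx2* the same counts were 9 of 29 (31.0%, 15.3% to 50.8%) and 1 of 17, whose intervals overlap. Over all protein coding genes 14.4% of values were at 10 CPM in the first set and 17.5% in the second. For S phase members the corresponding counts were 23 of 29 wells (79.3%, 60.3% to 92.0%) and 16 of 17 (94.1%, 71.3% to 99.9%), whose intervals overlap.

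S phase members outnumbered mitotic ones in 32 of 46 wells (69.6%, 54.2% to 82.3%), although the S phase list is the shorter. Much of this rested on *Pcna*, which was at 10 CPM in 36 wells, while 25 wells held another S phase member. In most of the 12 wells with 1 S phase member and no mitotic one, that member was *Pcna*. The comparison was not repeated without *Pcna*, so the 32 wells do not describe the S phase list apart from that gene. In 6 wells the mitotic members were more numerous, all 6 in columns 1 to 3 and 7 to 9, and in 8 wells the numbers were equal, 5 of them at 0. With at least 10 counts asked of each value the 32 wells became 22. The most S phase members in a well were 5 of 13, in E9, H12 and F3, and none of these wells held a mitotic member at 10 CPM. The 5 members of F3 rested on 2 to 8 counts each, those of E9 on 13 to 103.5 and those of H12 on 93.5 to 440. No well held more than 7 of the 33 S phase and mitotic members (21.2%, in B3).

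**Figure D4:**
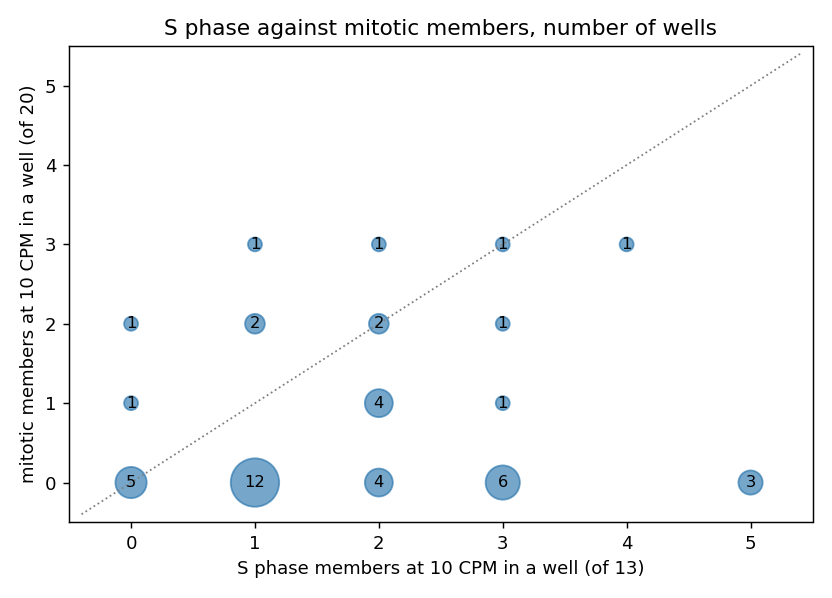
Number of S phase members (x axis) against mitotic members (y axis) at 10 CPM or more in a well; the number in each disc, and its area, give how many of the 46 wells share that pair of values, and the dotted line marks equal numbers. Most wells lie below the line, 12 of them with 1 S phase member and no mitotic one.

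Between 0 and 11 members, with a median of 5.5, were at 10 CPM in a well. In 4 wells 10 or more were found (8.70%, 2.42% to 20.8%): B3 with 11, and D3, E9 and H12 with 10. D2 and F3 followed with 9, and A1 and H3 had none. In all 4 wells *Ccnd2*, *Ccnd3*, *Cdk4*, *Cdkn1a* and *Pcna* were among the members found, and without the 7 G1 and inhibitor members no well reached 10. At 10 TPM no well reached 10 members either.

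*Prl* led the hormones in each of the 4 wells. B3 had 134050 CPM of *Prl*, 8409 of *Gh*, 4579 of *Pomc* and 1535 of *Cga*, the shared glycoprotein hormone subunit. D3 had 227032 CPM of *Prl*, 23729 of *Gh*, 18658 of *Pomc* and 1052 of *Cga*. E9 had 152808 CPM of *Prl*, 35891 of *Gh* and 9328 of *Pomc*, with 12.1 of *Cga*, and H12 had 507627, 498, 2312 and 34.0 CPM. *Pou1f1*, the factor of the *Prl*, *Gh* and *Tshb* lineage, was found in all 4, at 33.5, 11.5, 348 and 119 CPM. *Prl* led 37 of all 46 wells.

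Of the 14 replication and mitotic members found in these wells, 9 were found in 1 of the 4 and 5 in 2 or more: *Pcna* in all 4, *Mcm2* and *Tyms* in 3, and *Mcm7* and *Aurkb* in 2. The same count was not made over all protein coding genes, so it is not read as particular to these members. B3 held *Mcm2* (10.1 CPM), *Pcna* (10.0 CPM), *Rrm1* (24.6 CPM) and *Tyms* (42.4 CPM) with *Ccnb1* (33.5 CPM), *Aurkb* (39.2 CPM) and *Tpx2* (17.9 CPM), on 4.5 to 19 counts each. D3 held *Ccne1* (256 CPM, 67 counts), the cyclin of S phase entry, with *Mcm2* (11.5 CPM, 3 counts) and *Pcna* (23.0 CPM, 6 counts). D3 also held *Aurkb* (19.2 CPM, 5.02 counts), the spindle checkpoint kinase gene *Bub1b* (49.8 CPM, 13 counts) and *Cenpa* (10.6 CPM, 2.77 counts). Counts of *Aurkb* were fractional in all 8 wells that had any. E9 held *Mcm2*, *Mcm4*, *Mcm7*, *Pcna* and *Tyms* at 17.5 to 139 CPM. H12 held *Mcm5*, *Mcm6*, *Mcm7*, *Pcna* and *Tyms* at 25.0 to 118 CPM on 93.5 to 440 counts, which made it the well with the best supported set.

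These wells were rich in protein coding genes as a whole, though not in every marker list. They had 19.1% to 27.1% of all protein coding genes at 10 CPM, against 15.5% of coding gene values over all wells. Across the 46 wells the number of members at 10 CPM went with the number of all genes at 10 CPM (Pearson r = 0.686, Spearman rho = 0.588), and little with depth (r = -0.117) or spike-in share (r = -0.159). The points share the same total, since each count is of genes above a fixed share of it.

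**Figure D5:**
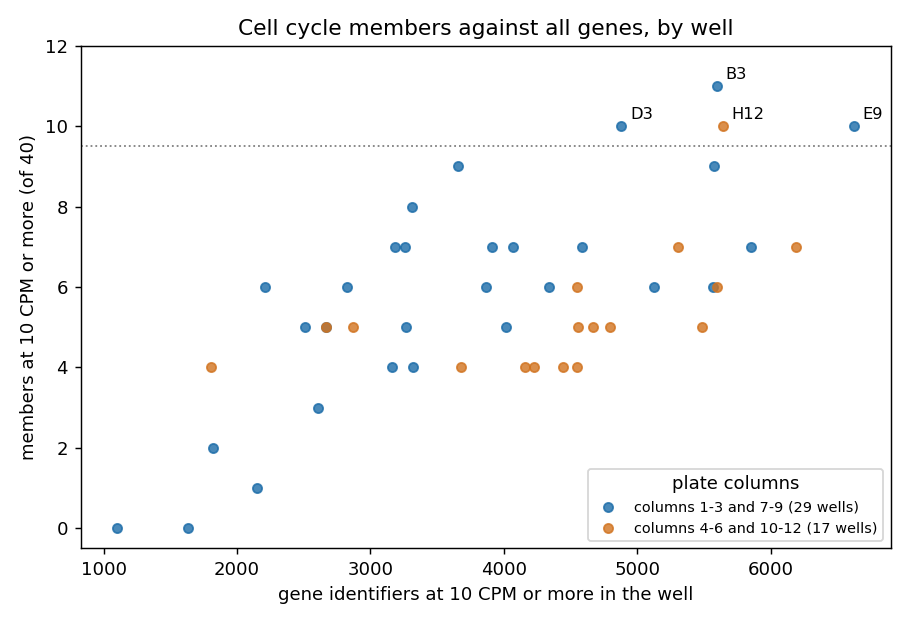
Number of members at 10 CPM or more (y axis, of 40) against the number of all gene identifiers at 10 CPM or more (x axis) in each of the 46 wells, coloured by plate columns; the dotted line separates the 4 named wells with 10 or more members. B3, D3, E9 and H12 all lie in the right part of the plot, and the wells with fewest genes have the fewest members.

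Markers of other cell types were present in some of these wells. B3 had 3 of 8 folliculostellate and stem markers at 10 CPM, among them the only *S100b* (55.9 CPM), *Aldh1a1* (132 CPM) and *Gfra2* (42.4 CPM) of that height in any well, with 1 of 7 endothelial, 3 of 9 macrophage and blood and 3 of 9 stromal and pericyte markers. D3 had 0, 3, 2 and 1 markers of the same lists, E9 0, 0, 1 and 1, and H12 2, 1, 3 and 2. The summed stromal and pericyte level was 72.5 to 873 CPM in the 4 wells and 0.355 to 514 CPM in the others, and that of the folliculostellate and stem list 0 to 230 CPM against 0 to 26077 CPM. The sums ran from 0.161 to 120 CPM against 0 to 10299 CPM for the endothelial list, and from 75.9 to 2271 CPM against 0.510 to 81774 CPM for the macrophage and blood list. The pericyte marker *Rgs5* was at 10 CPM in B3 (722 CPM) and D3 (746 CPM) and in no other of the 46 wells. Pituicyte markers were below 10 CPM in all 4. *Sox2*, *Col1a1*, *Lum* and *Nkx2-1* had 0 counts in all 46 wells, and *Ptprc*, *Csf1r*, *C1qa* and *C1qb* in these 4. Their part in the number of members was not tested.

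By leading hormone, the wells comprised 37 led by *Prl*, 5 by *Pomc* and 4 by *Gh*, with medians of 6, 5 and 4.5 members. *Ccnd3* was at 10 CPM in 19 of 37 Prl-led wells, 1 of 4 Gh-led wells and none of 5 Pomc-led wells, in which it was at most 2.31 CPM. *Ccnd2* and *Cdkn1a* were found in all 5 Pomc-led wells, at 187 to 1277 CPM and 151 to 985 CPM. In the 4 Gh-led wells *Cdkn1a* ranged from 0 to 651 CPM. The 5 Pomc-led wells all had more than 1000000 gene counts, and of the 17 Prl-led wells of that depth 8 held *Ccnd3* at 10 CPM (0 to 463 CPM). The difference was not tested.

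Wider lists of the same pathway showed the same order of classes. For comparison, 37.5% of protein coding genes were at 10 CPM in no well, and 15.5% of coding gene values reached this limit. Of 39 other S phase genes, 33 were at 10 CPM in at least 1 well, with 12.9% of values at the limit, near that background. *Tipin*, of the replication fork, led with 28 wells (median 20.7 CPM), followed by the histone mRNA binding gene *Slbp* with 23, and by *Rfc2* and *Pold3*, of the clamp loader and DNA polymerase delta, with 21 each. Of 41 other mitotic genes, 29 were found in at least 1 well, with 8.64% of values at the limit. They were led by genes that are not restricted to dividing cells, *Stmn1*, a regulator of microtubules, in 36 wells (median 27.7 CPM) and *Hmgb2*, a chromatin protein, in 22. *Pttg1*, securin, first found as a pituitary tumour transforming gene, was in 19 wells, at most at 611 CPM in C2, where no mitotic member reached 10 CPM.

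Genes of G1 and arrest were the most widespread. Of 30, 28 were found in at least 1 well and 7 in 50% of the wells or more, with 24.5% of values at the limit. Of protein coding genes 10.7% were found in 50% of the wells or more, with 15.5% of values at the limit. The antiproliferative gene *Btg2* and the stress gene *Gadd45a* were each in 35 wells (medians 37.1 and 23.2 CPM) and *Btg1* in 31 (26.9 CPM). The inhibitor genes were rarer, with *Cdkn2d* in 14 wells (at most 2602 CPM in D2), *Cdkn2c* in 9 (at most 137 CPM in G7), *Cdkn2b* and *Cdkn1c* in 2 each (at most 39.3 CPM in G10 and 118 CPM in D2) and *Cdkn2a* in none. *Btg2* was highest in B3, at 2382 CPM, the well with most members.

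With the lists joined, every well held only a small part of the mitotic genes at 10 CPM. Over all protein coding genes 15.5% of values reached this limit, so a small part is not particular to these genes. The most of the 61 mitotic genes in a well was 11, in B3 and H2 (18.0%), against a median of 4, and the most of the 52 S phase genes was 16, in H12 (30.8%), against a median of 7. Well C9, led by *Gh*, held the highest *Stmn1* (953 CPM) with *Kif11* (50.1 CPM), the spindle motor, and *Ccna2* (11.8 CPM), and was the only well with 0 counts of *Cdkn1a*. Named after their values had been seen, *Cdca3* (2968 CPM) and the kinetochore gene *Spc25* (1172 CPM) were highest there and at 10 CPM in no other well, and D2, the well with highest *Ccnb1*, also held the highest *Slbp* (20197 CPM).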

How the data were processed

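Estimated counts per gene were deposited by the authors for 56 wells in a table that also holds 92 ERCC spike-ins, with no scaling to depth. The submitters' processing notes name STAR 2.5.1b, featureCounts 1.5.0-p1 and mm10; the study's methods give an annotation release for bulk libraries with these tools, but for the single cells neither a release nor a strand setting is given in the sources used here. Of the values above 0, 33.5% were not whole (tolerance 1e-09).

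CPM was computed from gene rows without spike-ins, and TPM with exon lengths of GENCODE M21 (GRCm38). Symbols came from a separate list of gene names, in which 46488 identifiers had a symbol. Wells with at least 100000 gene counts were kept (111195 to 12563266), and a gene was called found at 10 CPM. Logs are log2(CPM + 1). Doublets were not called. Genes were named by a rule: all members, the leading 3 of each wider list, 7 chosen genes and the hormones and marker lists; *Cdca3*, *Spc25*, *Cdkn2b*, *Cdkn2d*, single markers and single wells were named after their values were seen. *Sgol1* was matched as *Sgo1*. The members, lists and plate split were chosen with earlier results of these data known.

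With 1 sample no test was made, and shares have exact Clopper-Pearson 95% intervals. Alternatives changed the limit, the depth, the wells, the scale and the members used. The code was tested on simulated data. Python 3.11.15, numpy 2.4.6, pandas 2.3.3, scipy 1.17.1 and matplotlib 3.10.9 were used.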

Additional observations from a re-analysis of the deposited data

Results flagged for a closer look

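The 10 wells with fewer than 100000 gene counts (357 to 96288) entered no count above. With more than 3 counts as the limit, S phase members gave 2 values there, both *Pcna*, with 5 and 9 counts. G1 cyclins and kinases gave 15 values, of *Ccnd2*, *Ccnd3* and *Cdk4*, in 8 wells, with up to 143 counts of *Ccnd2* in D12. CDK inhibitors gave 5 values, all *Cdkn1a*, with up to 36 counts in D12. None of the 200 mitotic values in these wells passed 3 counts. These values drew attention since they lie in libraries that the comparisons did not use.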

How the results depend on the processing

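The wells with 10 or more members (4) became 13 at 1 CPM, 0 at 100 CPM, at 10 TPM, with 15 or more members asked and without the G1 and inhibitor members, and 33 with 5 or more asked. The median of 5.5 members fell to 3 at 100 CPM and to 2.5 without the G1 and inhibitor members. The wells with more S phase than mitotic members (32) became 15 at 100 CPM and 22 with at least 10 counts asked, an alternative chosen after seeing the data, and were 16 of 17 in plate columns 4 to 6 and 10 to 12; they were 40, 44 and 38 when mean log2(CPM + 1), (CPM + 0.1) and (CPM + 10) were compared. The percent of mitotic values at the limit (3.26), added after seeing the data, became 7.17 at 1 CPM, 0.435 at 100 CPM, 2.07 at 10 TPM, 2.00 in the 25 wells with 1000000 gene counts, and 5.00 and 0.294 in the plate sets. The cause of these moves beyond the setting's own construction was not tested. The other alternatives, among them thinning to 100000 counts per well (6 wells with 10 or more members), all 56 wells (4), leaving out C11 (4), D2 (4, chosen after seeing the data) or the 10% of wells with most genes (2) and at least 3 counts asked (3), kept these values within their intervals, spreads or 1.5 times. The wells with 10 or more members were 2 with at least 10 counts asked and 1 of 25 with at least 1000000 gene counts, within the interval of the 4 of 46. The number of members found in 50% of the wells or more (4) stayed at 3 to 5, and that of members with a median of at least 10% of the highest (3) was 4 in TPM and 3 per 1000 spike-in counts. No paired analysis was possible because the wells form 1 group. At the depths below 1000000 counts a level of 10 CPM rests on fewer than 10 counts, so the absence of single members there cannot be read as absence of their RNA.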
